A study of Mus musculus with 4 samples.

Results

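Heat shock proteins and their partners form the protein folding machinery of the cell, and their transcripts were compared here in mouse blood between monocytes (MON) and neutrophils (NEU). The members were the protein-coding genes whose symbols begin with Hsp followed by a digit or a letter from a to h, with Dnaja, Dnajb or Dnajc, or with Cct followed by a digit from 2 to 8. This naming rule took 82 of 43346 genes, among 21474 protein-coding genes. By family, these were 3 Hsp90, 12 Hspa, 8 Hspb, 2 Hspd and Hspe, 1 Hsph, 4 Dnaja, 13 Dnajb, 28 Dnajc and 8 Cct genes, and 3 others (Hspbap1, Hspbp1 and Hspg2). A symbol rule goes by name and not by function: Hspg2 encodes perlecan, a matrix proteoglycan that is no chaperone, and Hspbap1 and Hspbp1 encode proteins that bind heat shock proteins.

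The 4 libraries held total RNA of adult C57BL6 mice, with 2 libraries of each cell type and no treatment or mutation. Monocytes circulate and mature into macrophages and dendritic cells, and neutrophils are short-lived granulocytes. Per the labels, the monocytes were sorted as Gr-1+ Mac-1+ cells from the mononuclear layer of a Ficoll gradient, whereas a supplementary table of the study gives a Ly6g negative, CD11b positive gate. The neutrophils were taken from the pellet after lysis of red cells, and the labels name no sort for them. Nothing in the labels says which animals were pooled, so the spread within a group may be technical, and the p-values measure only that spread.

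Several library-wide values bear on every result below. The expected counts summed to between 20549572 and 26076261 per library, so the deepest library was the monocyte replicate 1 and the shallowest the neutrophil replicate 2. Monocyte markers summed to 17393 and 16566 CPM (counts scaled by library size) in MON, against 2456 and 2573 CPM in NEU, and 11 of 12 were higher in MON. Neutrophil markers summed to 329 and 358 CPM in MON, against 7690 and 7959 in NEU, and 11 of 12 were higher in NEU. Markers of natural killer (NK) cells were also present in MON, with sums of 2827 and 2871 CPM, against 32.7 and 33.7 CPM in NEU, and 11 of 11 were higher in MON. B cell markers summed to 737 and 861 CPM in MON, against 5356 and 5240 CPM in NEU, and 10 of 10 were higher in NEU. Red cell markers summed to 6219 and 6663 CPM in MON, against 8067 and 8740 CPM in NEU. Of these 7, 1 was higher in MON and 4 were higher in NEU. T cell markers were lower, at 93.7 and 99.8 CPM in MON and 163 and 169 CPM in NEU, with 1 of 10 higher in MON and 7 higher in NEU. Ly6g and Camp, defining neutrophil genes, had 0 counts in MON. Both were also low in NEU, where Ly6g had 6.67 and 5.78 CPM and Camp had less. Retnlg, the neutrophil marker called higher in MON, had 224 and 236 CPM in MON, against 173 and 197 CPM in NEU. Csf3r, among the 11 higher in NEU, had 62.7 and 87.3 CPM in MON, against 2485 and 2342 CPM in NEU. The NK cell marker Gzma stood at 1425 and 1274 CPM in MON. Xist, an RNA of female cells, had 0 counts in MON and 234 and 239 CPM in NEU, although Ddx3y of the Y chromosome was detected in all 4 libraries, at 375 and 387 CPM in MON and 160.1 and 136 CPM in NEU. The study's methods give male mice as the source of its primary cells, which the Xist level of the NEU libraries goes against. What other cell types and the sex of the animals contributed to the differences below was not tested. In bulk RNA, a larger number of cells of a type and more RNA per cell cannot be told apart.

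HSP70 proteins (the Hspa genes) bind unfolded stretches of protein in a cycle driven by ATP. J proteins (the Dnaj genes) deliver clients and start that cycle, and exchange factors such as the Hsph1 product end it by releasing ADP. HSP90 proteins (the Hsp90 genes) complete the folding of kinases and receptors, the CCT ring (the Cct genes) folds actin and tubulin, and the Hspd1 and Hspe1 products form the folding chamber of mitochondria.

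Most of the members that differed were higher in MON. Of the 82 members, 64 passed the filter on low counts and entered the fit over 14309 genes, and 18 did not. At a Benjamini-Hochberg adjusted p under 0.05 (edgeR quasi-likelihood F test, adjusted over all genes tested), 31 members were higher in MON, 6 were higher in NEU and 27 passed in neither direction. Over all genes tested, 20.8% were called higher in MON and 21.8% higher in NEU, whereas the members' shares were 48.4% and 9.38%. Abundant genes are called more easily, so the shares were also taken among protein-coding genes with a mean of at least 10 CPM, where 30.1% were higher in MON and 27.1% higher in NEU. Among the 48 members at that level, 29 (60.4%) were higher in MON and 5 (10.4%) higher in NEU. The median log2 fold change, monocyte over neutrophil, was 0.53 over the 64 members and -0.06 over all genes tested. The median log2 fold change of the members ranged from 0.53 to 0.57 when 1 library was left out. Such a fit takes its spread only from the group that keeps 2 libraries. The spread between replicates (biological coefficient of variation) was 45.6% in monocytes and 14.7% in neutrophils. Calls lost below without a neutrophil library therefore depend on the wider monocyte spread, and are no measure of reliance on that library alone. On length-corrected values tested with limma, log2(coding TPM + 1), 17 and 6 members were called, so that the share of calls on the MON side was 73.9%, against 83.8% in the test of counts. Over all genes the share of calls on the MON side was 35.4% on that scale and 48.8% in the test of counts. The members that lost a MON call on that scale were Cct3, Cct4, Cct5, Cct7, Cct8, Dnajb6, Dnajb14, Dnajc1, Dnajc2, Dnajc21, Dnajc25, Hsp90ab1, Hspa1b and Hspa9.

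**Figure D1:**
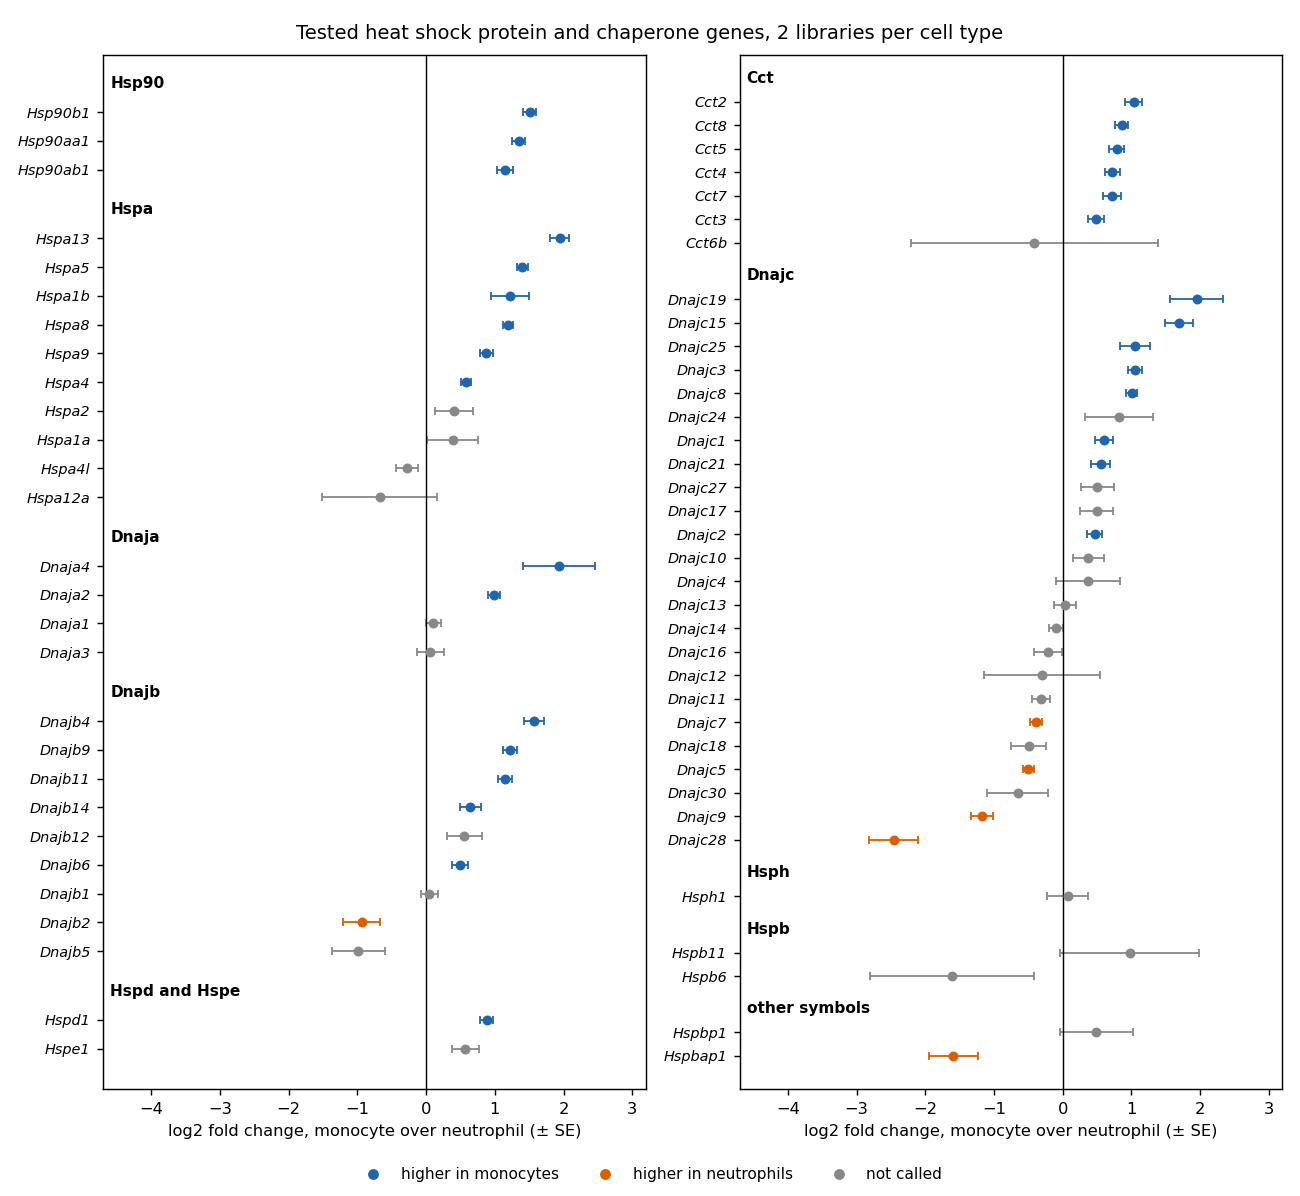
Log2 fold change of CPM, monocyte over neutrophil, for the 64 tested members, ordered within each family. Points are edgeR estimates, bars are standard errors, and colours show genes called higher in monocytes, higher in neutrophils or in neither. The 3 Hsp90 genes lie between 1.15 and 1.51, and the Dnajc genes spread from -2.46 to 1.95.

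The share of genes called differed in size among the families. All 3 Hsp90 genes, 6 of 7 tested Cct genes and 6 of 10 tested Hspa genes were higher in MON, with none higher in NEU. Dnajb had 5 higher in MON and 1 in NEU among 9 tested, and Dnajc had 8 and 4 among 24. In Dnaja, 2 of 4 were higher in MON. Neither of the 2 tested Hspb genes passed. These counts rest on few genes per family, and differences among families were not tested.

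**Figure D2:**
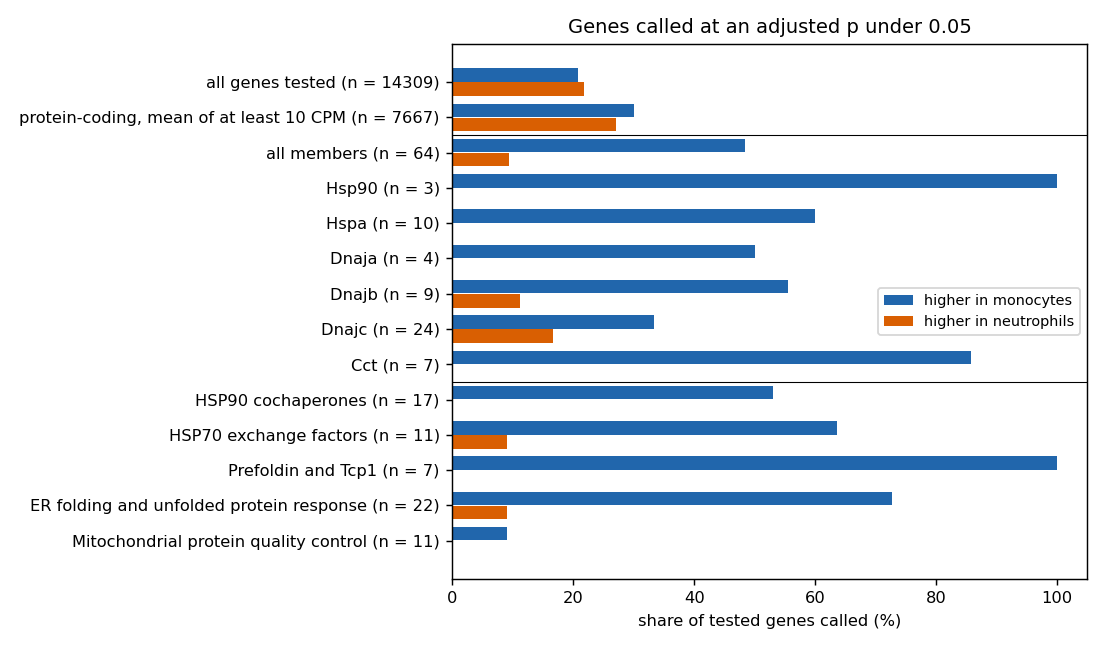
Share of tested genes called higher in monocytes (blue) and higher in neutrophils (orange) at an adjusted p under 0.05, with the number tested in parentheses. The upper rows are the backgrounds of 14309 and 7667 genes, the middle rows the members and their families, and the lower rows partner genes from other lists. The members reach 48.4% and 9.38%, against 20.8% and 21.8% of all genes tested.

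Levels were compared between genes as coding TPM, which is the deposited TPM rescaled so that the protein-coding genes alone sum to the TPM total of a library. On this scale the members together held 1.23% and 1.12% of the coding transcripts in MON, against 0.750% and 0.749% in NEU. The groups did not overlap, and the summed level was 1.57 times as high in MON (11755 ± 804 against 7493 ± 5.39 coding TPM, SD, n = 2 each). On the CPM scale the ratio of the sums was 1.88. With 2 libraries against 2, an exact two-sided permutation test cannot go below p = 0.333, which is the value found here. A single gene, Hspa8, supplied 22.2% of the summed coding TPM in MON and 18.5% in NEU. Hspa8 encodes HSC70, the constitutive cytosolic HSP70, and was the most abundant member in each of the 4 libraries.

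The order of the families by summed coding TPM was led by Hspa in both cell types. The Hspa genes summed to 4310.1 ± 190 in MON and 2383 ± 40.5 in NEU (SD, n = 2 each). Next came Hsp90 in MON, at 2644 ± 375, against 1213 ± 44.8 in NEU. In NEU the second place was held by Dnajc, at 1730.5 ± 23.3, against 1926 ± 87.3 in MON. The ratio of the family sums, MON over NEU, was 2.18 for Hsp90, 1.81 for Hspa, 1.46 for Cct, 1.44 for Hspd and Hspe, 1.39 for Dnajb, 1.11 for Dnajc and 1.05 for Dnaja. The libraries of the 2 cell types did not overlap in the first 6 of these and overlapped for Dnaja. The permutation p was 0.333, the smallest possible, for each of the 6, and 0.667 for Dnaja.

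**Figure D3:**
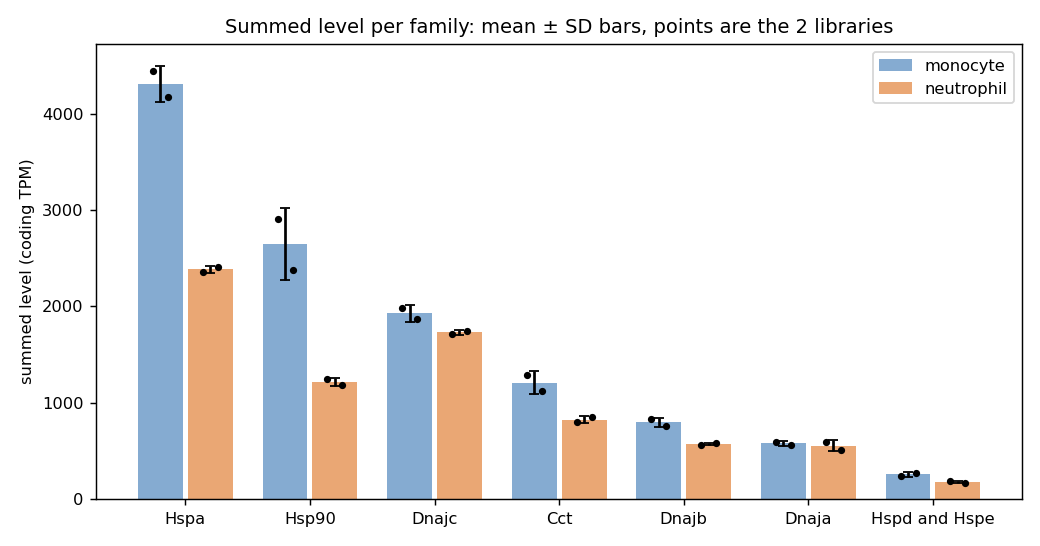
Summed coding TPM of 7 families in monocytes (blue) and neutrophils (orange). Bars are means, error bars are SD and black points are the 2 libraries of each group. The Hspa bars stand at 4310.1 and 2383 coding TPM and the Hsp90 bars at 2644 and 1213, while the Dnaja points of the groups overlap.

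The listed chaperones of the endoplasmic reticulum (ER), where secreted and membrane proteins fold, were mostly higher in MON. Of the 8 members listed for this compartment, 7 were higher in MON, none was higher in NEU and the median log2 fold change was 1.18. Of all members tested, 48.4% were higher in MON and 9.38% higher in NEU. The summed level of the 8 was 2962 and 2652 CPM in MON, against 1115 and 1105 CPM in NEU. The list left out some J proteins of the ER membrane. Among them, Dnajb14 (0.64) was higher in MON, whereas Dnajb12 (0.56), Dnajc14 (-0.10), Dnajc16 (-0.21) and Dnajc18 (-0.49) were not called. The NK cell markers that marked the MON libraries and the B cell markers that marked the NEU libraries moved with the summed level, and their part was not tested.

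A sequence feature set several of these ER genes apart from most promoters. The ER stress response element, which the factors ATF6 and NF-Y are known to bind, was searched as CCAAT and CCACG separated by 9 bases, on both strands, from 250 bases before to 50 bases after each RefSeq start site (build GRCm38.p6). Windows were found for 67 members. The element occurred in 37 of 27025 genes in the table (0.137%) and in 3 of 67 members (4.48%). These 3 were Hspa5, Hsp90b1 and Dnajc3, all of them ER genes and all higher in MON. Their stretches are printed 5′ to 3′ on the strand of the gene, because they are the sequence the 3 genes share, with the fixed letters of the element in capitals. Hspa5 is given from 70 to 41 bases before the start site (chr2:34772020-34772049, + strand), Hsp90b1 from 222 to 79 bases before it (chr10:86705523-86705666, - strand), which holds 2 matches in opposite orientations, and Dnajc3 from 125 to 66 bases before it (chr14:118937807-118937866, + strand).
Hspa5: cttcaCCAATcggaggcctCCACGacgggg
Hsp90b1: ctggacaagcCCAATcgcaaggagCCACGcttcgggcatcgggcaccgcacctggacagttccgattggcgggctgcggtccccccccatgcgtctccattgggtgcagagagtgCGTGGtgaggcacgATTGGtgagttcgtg
Dnajc3: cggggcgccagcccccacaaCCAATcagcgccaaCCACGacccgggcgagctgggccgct
A match describes the letters only and is no evidence of binding in these cells. The other ER members with a window had no exact match within it.

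Hspa5 encodes BiP, the HSP70 of the ER lumen (chromosome 2, 34771970 to 34777547, mm10). It had 1243 and 1139.8 CPM in MON, against 457 and 447 CPM in NEU. Both MON libraries lay far above both NEU libraries, with a log2 fold change of 1.40 ± 0.08 (SE, adjusted p = 0.000164). Hsp90b1 encodes GRP94, the HSP90 of the same compartment (chromosome 10, 86690209 to 86705509). Its level was 1081 and 929 CPM in MON, against 349.6 and 358 CPM in NEU, a log2 fold change of 1.51 ± 0.10 (adjusted p = 0.000245). The groups did not overlap for either gene, and these were the second and the fourth most abundant members in MON by coding TPM.

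Of the J proteins that serve BiP, Dnajb11, Dnajb9 and Dnajc3 followed the same direction. Dnajb11 (ERdj3), which hands unfolded clients to BiP, had 142 and 155 CPM in MON, against 70.0 and 63.6 CPM in NEU (log2 fold change 1.15 ± 0.10). Dnajb9 (ERdj4), a stress-induced partner that takes part in the disposal of misfolded proteins, had 101 and 101 CPM in MON, against 44.8 and 41.9 CPM in NEU (1.22 ± 0.10). Dnajc3, an inhibitor of the kinase PERK as well as a BiP partner, had 192 and 164 CPM in MON, against 84.6 and 87.2 CPM in NEU (1.05 ± 0.11). For these 3 genes both MON libraries exceeded both NEU libraries, with adjusted p-values of 0.000675, 0.000536 and 0.00104 in that order. Hspa13, a small HSP70 relative of the microsomes, had 54.6 and 56.2 CPM in MON, against 15.2 and 13.5 CPM in NEU. At 1.94 ± 0.14 (adjusted p = 0.000327), it had the largest log2 fold change of the Hspa family. Dnajc1, a J protein of the ER membrane, differed less (0.61 ± 0.13, adjusted p = 0.0143), and its adjusted p was 0.134 without neutrophil replicate 1 and 0.150 without neutrophil replicate 2.

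Dnajc10 (ERdj5), which reduces disulfide bonds, was the only one of the 8 listed ER members that was not called. It had 101 and 62.1 CPM in MON, against 63.1 and 62.6 CPM in NEU, so the groups overlapped (0.37 ± 0.23, adjusted p = 0.248). Monocyte replicate 1 alone was high: the log2 fold change was -0.03 without it and 0.67 without monocyte replicate 2. Sec63, a J protein that is no member by symbol, had 94.2 and 70.1 CPM in MON, against 85.3 and 72.6 CPM in NEU. Its groups overlapped as well (0.06 ± 0.17, adjusted p = 0.825).

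A list of 22 further ER folding and unfolded protein response genes had 16 higher in MON and 2 higher in NEU. Over all genes tested, 20.8% were higher in MON and 21.8% higher in NEU. The median of the list was 0.73, against -0.06 over all genes tested. The largest log2 fold change belonged to Sdf2l1, a partner of Dnajb11 in the ER (2.49 ± 0.37, adjusted p = 0.00407), at 16.4 and 22.2 CPM in MON and 2.44 and 4.41 CPM in NEU. The disulfide isomerase gene P4hb stood at 366 and 329 CPM in MON and 98.3 and 113 CPM in NEU (1.72 ± 0.11). The 2 genes higher in NEU were Syvn1 and Eif2ak3, named for their count after their values were seen. Syvn1, the ubiquitin ligase HRD1 of ER-associated degradation, had 11.8 and 16.9 CPM in MON, against 50.7 and 51.7 CPM in NEU (-1.84 ± 0.20, adjusted p = 0.00135). Eif2ak3, the stress sensor PERK that Dnajc3 inhibits, had 69.0 and 72.4 CPM in MON, against 204 and 210.0 CPM in NEU (-1.55 ± 0.09, adjusted p = 0.000146). Thus Dnajb11, Dnajb9 and Dnajc3 differed in one direction and PERK in the other, each without overlap between the groups.

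**Figure D4:**
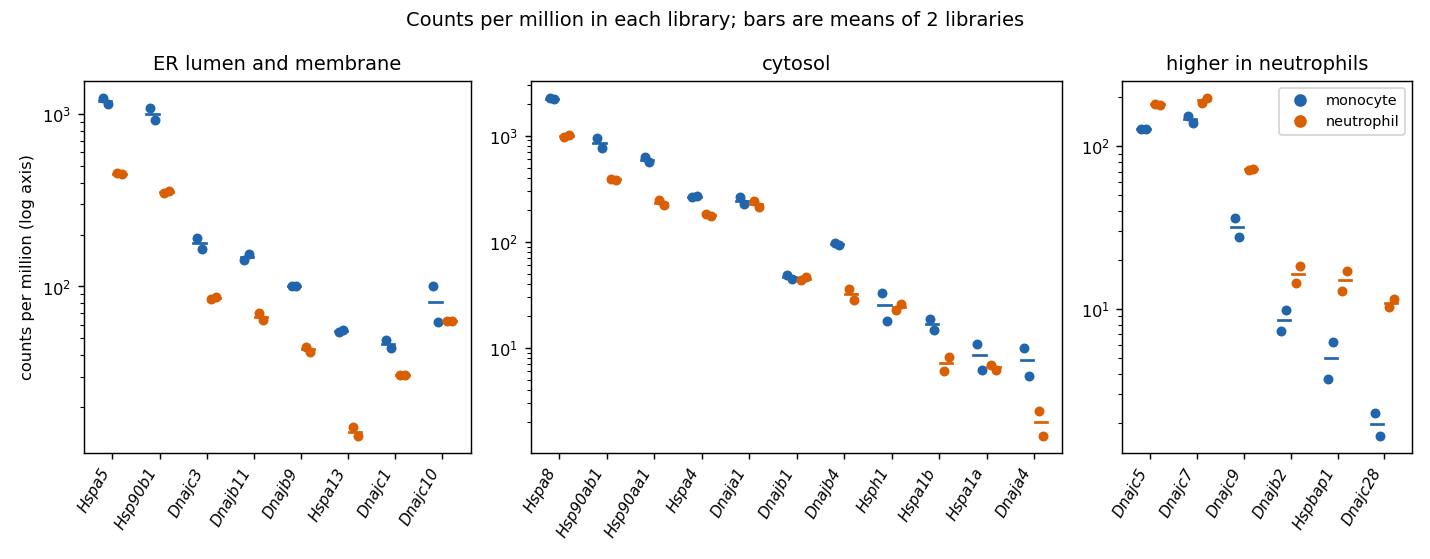
CPM of selected members in each monocyte (blue) and neutrophil (orange) library on a log axis, with horizontal bars at the means of the 2 libraries. Left, ER members; middle, cytosolic members; right, the members called higher in neutrophils. The ER genes other than Dnajc10 separate the groups, whereas Dnajc10, Dnaja1, Dnajb1, Hsph1 and Hspa1a overlap.

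In the cytosol, Hspa8 and both HSP90 genes were higher in MON by more than 2-fold as estimated from counts. On coding TPM, Hspa8 (means of 2607 in MON and 1388 in NEU) and Hsp90ab1 (974 and 562) differed by less than 2-fold. In the edgeR test against a 2-fold change Hsp90ab1 did not pass (adjusted p = 0.181). Hspa8 (chromosome 9, 40800984 to 40810087) had 2265 and 2203 CPM in MON, against 962 and 1003 CPM in NEU. The log2 fold change was 1.19 ± 0.07 (adjusted p = 0.000192), and neither group's libraries reached the other's. Hsp90ab1, the constitutive cytosolic HSP90, had 952 and 769.6 CPM in MON, against 391 and 383 CPM in NEU (1.15 ± 0.12, adjusted p = 0.00103). On log2(coding TPM + 1) its fold change was 0.78 and its adjusted p 0.0648 with limma. Hsp90aa1, the stress-inducible HSP90, had 622 and 561 CPM in MON, against 245 and 220.2 CPM in NEU (1.35 ± 0.10, adjusted p = 0.000337). Hspa4, an exchange factor of the HSP110 type, differed less, at 263 and 270.0 CPM in MON and 181 and 175 CPM in NEU (0.58 ± 0.08, adjusted p = 0.00249).

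The heat-inducible genes were divided in the test, with 4 of 10 called. Heat shock factor 1 (HSF1) is the activator that drives these genes in stressed cells. Of the 11 members known as its targets, 10 were tested, 4 were higher in MON, none was higher in NEU and 6 were not called. The log2 fold change was above 0 for 9 of the 10, with a median of 0.48, against 0.53 over the 64 members tested. For comparison, 20.8% of all genes tested and 48.4% of the members tested were called higher in MON. The 4 targets called were Hspa8, Hsp90aa1, Hspd1 and Hspa1b, of which the first 3 are also abundant without stress. Dnajb1, the classical inducible J protein, had 48.3 and 44.4 CPM in MON, against 43.7 and 46.1 CPM in NEU, so the groups overlapped (0.05 ± 0.12, adjusted p = 0.794). Dnaja1, its more abundant relative, had 263 and 226 CPM in MON, against 241 and 213 CPM in NEU (0.11 ± 0.11, adjusted p = 0.491). Hsph1 had 32.7 and 18.1 CPM in MON, against 22.6 and 25.6 CPM in NEU, and the MON replicates enclosed those of NEU. Its log2 fold change was 0.07 ± 0.30 with both, -0.43 without monocyte replicate 1 and 0.42 without monocyte replicate 2, so its sign followed the MON replicate kept. Hspa4l, another exchange factor of this type, had 33.3 and 29.3 CPM in MON, against 41.5 and 34.5 CPM in NEU (-0.28 ± 0.16, adjusted p = 0.209). The small heat shock protein gene Hspb1 had at most 0.0765 CPM in any library.

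Hspa1a and Hspa1b, the inducible HSP70 pair, lie beside each other on chromosome 17 and have nearly identical sequences, so reads may be divided uncertainly between them. Hspa1b had 18.7 and 14.7 CPM in MON, against 6.07 and 8.28 CPM in NEU (1.22 ± 0.28, adjusted p = 0.0175). The call was lost without neutrophil replicate 1 (adjusted p = 0.113). Hspa1a had 10.9 and 6.17 CPM in MON, against 6.90 and 6.18 CPM in NEU, and its groups overlapped (0.38 ± 0.37, adjusted p = 0.459). Uncertainty in assigning reads, as a posterior coefficient of variation, reached 6.78% for Hspa1a and 5.06% for Hspa1b, but 900.0% for the neighbouring Hspa1l, which was not tested. Immediate early genes, which respond to cell handling, were divided: 5 of 13 were higher in MON, among them Atf3 and Jun, and 5 were higher in NEU, among them Fos and Dusp1. The part of handling in these levels was not tested.

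The heat shock element, which HSF1 is known to bind, was searched as 3 alternating GAA and TTC units spaced by 2 bases (GAANNTTCNNGAA or TTCNNGAANNTTC). It occurred in 179 of 27025 genes (0.662%) and in 4 of 67 members (5.97%), namely Dnajb6, Hspd1, Hspe1 and Hsph1. A single pair of units (GAANNTTC or TTCNNGAA), which every full element also contains, occurred in 4587 of 27025 genes (17.0%) and in 19 of 67 members (28.4%). Of the Hsp90 genes only Hsp90b1 had a window, so Hsp90aa1 and Hsp90ab1 were not searched. Of the 11 members known as HSF1 targets, 9 had a window, of which 3 held the full element and 7 a single pair. Among the members higher in MON, 2 of 24 with a window held the full element, and among those called in neither direction 2 of 23 did. The TATA box (TATAAA) occurred in 4 of 67 members (5.97%) and in 15.7% of all genes. The shared element between Hspd1 and Hspe1, genes that are read from opposite strands, is printed on the strand of Hspe1 from 95 to 66 bases before its start site (chr1:55088053-55088082, + strand). The element of Dnajb6 is given from 55 to 26 bases before a start site (chr5:29735843-29735872, + strand), and capitals mark the GAA and TTC units.
Hspe1: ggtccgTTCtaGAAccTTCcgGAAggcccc
Dnajb6: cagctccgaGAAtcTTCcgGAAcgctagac
The first run holds 4 units in a row, which gives 2 overlapping matches. It lies between the genes only for 1 of the 2 RefSeq start sites of Hspd1 (55087932), while the window of the other (55088243) does not reach it and held no match. The match of Hsph1 lay after its start site and is not printed.

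The ratios of 5 pairs of related genes were taken on coding TPM within each library, where differences in depth cancel. Hsp90aa1 over Hsp90ab1 was 0.729 and 0.877 in MON, against 0.517 and 0.492 in NEU. The inducible form thus made up a larger part relative to the constitutive one in both MON libraries, by a factor of 1.59 on coding TPM (exact permutation p = 0.333, the smallest possible). In the test of counts these genes lay closer together, with log2 fold changes of 1.35 for Hsp90aa1 and 1.15 for Hsp90ab1. The inducible HSP70 pair together amounted to 0.939% and 0.687% of Hspa8 in MON, against 0.913% and 0.999% in NEU, and these groups overlapped (exact permutation p = 0.667). Hspa5 over Hspa8 was 0.429 and 0.403 in MON, against 0.446 and 0.453 in NEU, slightly lower in MON in both libraries. That direction held on coding TPM only. In the test of counts the log2 fold change was larger for Hspa5 (1.40) than for Hspa8 (1.19), a difference that was not tested. Dnajb1 over Dnaja1 was 0.138 and 0.133 in MON, against 0.121 and 0.153 in NEU, with overlap. Hspd1 over Hspe1 was 1.27 and 1.09 in MON, against 0.881 and 1.05 in NEU.

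**Figure D5:**
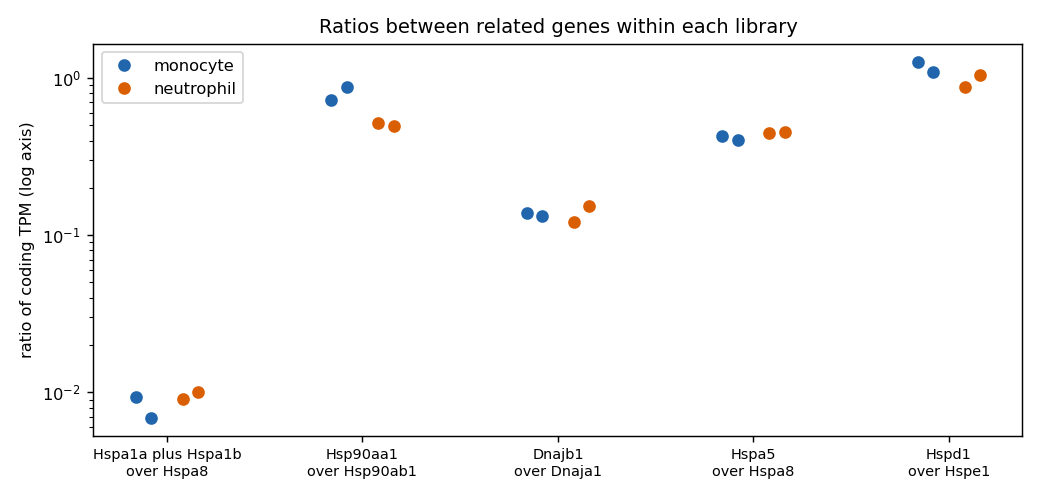
Ratio of coding TPM between related genes in each monocyte (blue) and neutrophil (orange) library, on a log axis. Hsp90aa1 over Hsp90ab1 is 0.729 and 0.877 in monocytes and 0.517 and 0.492 in neutrophils, and the inducible HSP70 pair stays at or below 0.999% of Hspa8 in every library.

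Heat shock factors themselves were unequal. Hsf2, a factor active in development and a partner of HSF1, had 29.4 and 25.1 CPM in MON, against 4.65 and 4.85 CPM in NEU (2.52 ± 0.21, adjusted p = 0.000477). Hsf1 had 3.67 and 8.29 CPM in MON, against 13.8 and 11.9 CPM in NEU, a difference that did not pass (-1.11 ± 0.43, adjusted p = 0.0916). Hsbp1, an inhibitor of HSF1, had 28.4 and 24.6 CPM in MON and 24.3 and 23.9 CPM in NEU (0.14 ± 0.15, adjusted p = 0.517). Hsf4 and Hsf5 were too low to be tested.

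Cytosolic J proteins other than the inducible pair differed more than that pair. Dnajb4, a close relative of Dnajb1, had 97.7 and 92.9 CPM in MON, against 35.6 and 28.5 CPM in NEU (1.57 ± 0.14, adjusted p = 0.000693). Dnaja2, the main constitutive class A J protein beside Dnaja1, had 213 and 197 CPM in MON, against 105.4 and 101.7 CPM in NEU (0.99 ± 0.09, adjusted p = 0.000664). These 2 genes separated the groups fully, unlike their relatives Dnajb1 and Dnaja1, although the difference between relatives was not tested. Dnaja4 was low, at 9.98 and 5.38 CPM in MON and 2.53 and 1.47 CPM in NEU (1.94 ± 0.52, adjusted p = 0.0305), and its adjusted p was 0.133 without neutrophil replicate 2. Dnajb6, which holds back protein aggregation, had 146 and 122 CPM in MON, against 92.7 and 98.0 CPM in NEU (0.49 ± 0.12, adjusted p = 0.0213). Its call was lost with an effective length offset (0.33, adjusted p = 0.110) and without either neutrophil replicate (adjusted p of 0.132 and 0.0692). Dnajb12 and Dnajb14 are J proteins of the ER membrane that were not in the list of 8 ER members. Dnajb14 was higher in MON (0.64 ± 0.15, adjusted p = 0.0200), a call lost without neutrophil replicate 1 (adjusted p = 0.0538), without neutrophil replicate 2 (adjusted p = 0.225) and with an effective length offset (adjusted p = 0.0661). Dnajb12 did not pass (0.56 ± 0.26, adjusted p = 0.143), and its log2 fold change was 0.82 without monocyte replicate 2.

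On the NEU side stood 6 members: Dnajb2, Dnajc5, Dnajc7, Dnajc9, Dnajc28 and Hspbap1. The most abundant of these by coding TPM was Dnajc7, a J protein that binds both HSP70 and HSP90 (chromosome 11, 100582818 to 100620168). It had 153 and 139.7 CPM in MON, against 185 and 199 CPM in NEU (-0.39 ± 0.09, adjusted p = 0.0203). It ranked 11th among the members in MON and 4th in NEU, at 310.4 and 242 coding TPM in MON and 536 and 554 coding TPM in NEU. The groups did not overlap, and the call was lost without either neutrophil replicate (adjusted p of 0.0654 and 0.145).

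Dnajc9, which chaperones histones H3 and H4, had 36.2 and 27.7 CPM in MON, against 72.0 and 72.5 CPM in NEU (-1.18 ± 0.16, adjusted p = 0.00284). Both NEU libraries were about equal and lay above both MON libraries. Dnajc5, the cysteine string protein of secretory vesicles, had 128 and 128 CPM in MON, against 182 and 180.3 CPM in NEU (-0.50 ± 0.08, adjusted p = 0.00502). The groups did not overlap. Dnajc28, a J protein of little-known function, had 2.29 and 1.65 CPM in MON, against 10.3 and 11.5 CPM in NEU. At -2.46 ± 0.36 (adjusted p = 0.00375) it had the largest difference on the NEU side. Dnajb2, which steers clients to the proteasome, had 7.30 and 9.86 CPM in MON, against 14.4 and 18.4 CPM in NEU (-0.94 ± 0.27, adjusted p = 0.0368). It kept its direction but not its call without either neutrophil replicate (adjusted p of 0.0727 and 0.264). Hspbap1 had 3.71 and 6.29 CPM in MON, against 12.9 and 17.2 CPM in NEU (-1.59 ± 0.36, adjusted p = 0.0170), and its adjusted p was 0.0796 without neutrophil replicate 2. The B cell markers, higher in NEU by the sums given above, moved with these 6 differences, and their part was not tested.

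Of the other vesicle members, Dnajc13, a J protein of endosomes, had 130.3 and 95.04 CPM in MON, against 107 and 113 CPM in NEU (0.03 ± 0.16, adjusted p = 0.893). Dnajc6 (auxilin), which strips clathrin from vesicles mainly in neurons, reached 0.0393 CPM in 1 library and had 0 counts in the others. Gak, its relative in most tissues and no member by symbol, had 183 and 169.7 CPM in MON and 161 and 169.5 CPM in NEU (0.09 ± 0.09, adjusted p = 0.442).

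Of 5 J proteins of the nucleus and the ribosome, 3 were higher in MON and 1, Dnajc9, was higher in NEU. The shares over all members tested were 48.4% and 9.38%, and over all genes tested 20.8% and 21.8%. Dnajc8, a component of the spliceosome, had 279.5 and 261 CPM in MON, against 135 and 135 CPM in NEU (1.003 ± 0.08, adjusted p = 0.000462). By coding TPM it was the 6th most abundant member in MON and the 7th in NEU. Dnajc2, which sits at the exit of the ribosome, had 90.1 and 100.5 CPM in MON, against 70.3 and 67.6 CPM in NEU (0.47 ± 0.11, adjusted p = 0.0175). Dnajc21, which acts in ribosome assembly, had 47.2 and 43.7 CPM in MON, against 28.9 and 33.1 CPM in NEU (0.55 ± 0.14, adjusted p = 0.0244). The calls of Dnajc2 and Dnajc21 were both lost without neutrophil replicate 1 (adjusted p of 0.119 and 0.284) and without neutrophil replicate 2 (0.172 and 0.117). Dnajc17, a nuclear J protein, did not pass (0.50 ± 0.24, adjusted p = 0.155).

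Of 8 mitochondrial members, 4 (Dnajc15, Dnajc19, Hspa9 and Hspd1) were higher in MON, none was higher in NEU and the median was 0.72. That number is near the share of all members tested, of which 48.4% were higher in MON, against 20.8% of all genes tested. Dnajc15 and Dnajc19 encode J proteins of the inner membrane that work with the import motor. Dnajc15 had 27.6 and 23.9 CPM in MON, against 8.56 and 7.35 CPM in NEU (1.70 ± 0.20, adjusted p = 0.00173). Dnajc19 had 10.8 and 20.8 CPM in MON, against 4.23 and 3.92 CPM in NEU (1.95 ± 0.39, adjusted p = 0.0115). Both MON libraries were higher for each gene, although the MON replicates of Dnajc19 lay far apart and assigning its reads had an uncertainty (posterior coefficient of variation) of up to 9.86%. Hspa9 (mortalin), the HSP70 that pulls proteins into the matrix, had 175 and 164 CPM in MON, against 95.9 and 89.2 CPM in NEU (0.87 ± 0.09, adjusted p = 0.00121). Grpel1, its exchange factor and no member by symbol, had 78.8 and 71.4 CPM in MON, against 23.6 and 21.6 CPM in NEU (1.73 ± 0.13, adjusted p = 0.000352).

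The folding chamber of the mitochondrial matrix differed less clearly. Hspd1 (HSP60) had 124 and 138 CPM in MON, against 70.9 and 71.6 CPM in NEU (0.88 ± 0.10, adjusted p = 0.00140). Its lid Hspe1 (HSP10) had 27.4 and 36.03 CPM in MON, against 22.9 and 19.8 CPM in NEU. The groups did not overlap for Hspe1, but the difference missed the threshold (0.57 ± 0.19, adjusted p = 0.0610), and it passed with no filter on low counts (adjusted p = 0.0389). Dnaja3 (0.06 ± 0.20), Dnajc11 (-0.31 ± 0.13) and Dnajc30 (-0.65 ± 0.44) were not called. Dnajc11, which joins the contact sites of the inner and outer membranes, changed most with transcript length: with an effective length offset its log2 fold change was -1.03 (adjusted p = 0.0107). Of 11 further genes of mitochondrial protein quality control, 1 passed, the protease gene Afg3l2, named for its count after its values were seen (1.32 ± 0.13, adjusted p = 0.000898). The median of those 11 was 0.19.

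The CCT ring is built of 8 different subunits, of which 6 were members. All 6 were higher in MON, against 48.4% of the members tested and 20.8% of all genes tested. The log2 fold changes were 1.04 ± 0.12 for Cct2, 0.86 ± 0.10 for Cct8, 0.78 ± 0.11 for Cct5, 0.72 ± 0.11 for Cct4, 0.72 ± 0.14 for Cct7 and 0.49 ± 0.12 for Cct3. Cct2 had 252 and 203 CPM in MON, against 111 and 110.4 CPM in NEU, and Cct3 had 83.1 and 75.4 CPM in MON, against 53.4 and 59.4 CPM in NEU. Apart from Cct2, the 6 differed by less than 2-fold in the test of counts. On coding TPM the groups overlapped for Cct3, at 104.6 and 95.1 in MON and 75.5 and 105.7 in NEU. On log2(coding TPM + 1) with limma, Cct2 passed (adjusted p = 0.0472) and the other 5 did not, with adjusted p-values from 0.0805 for Cct8 to 0.636 for Cct3. The call of Cct3 was also lost without neutrophil replicate 1 (adjusted p = 0.232), without neutrophil replicate 2 (adjusted p = 0.0875) and with an effective length offset (adjusted p = 0.256). The other subunits of the ring fell outside the rule: Tcp1 by its symbol, and Cct6a because the annotation used gives it the type processed transcript. Tcp1 had 248.5 and 187 CPM in MON, against 149 and 119.8 CPM in NEU (0.69 ± 0.17, adjusted p = 0.0244), and Cct6a had 80.8 and 82.0 CPM in MON, against 41.1 and 48.6 CPM in NEU (0.86 ± 0.13, adjusted p = 0.00369). Thus all 8 subunits were called higher in MON in the test of counts, whereas with limma on coding TPM neither Tcp1 (adjusted p = 0.189) nor Cct6a (adjusted p = 0.0548) passed, and Tcp1 missed the threshold without neutrophil replicate 2 (adjusted p = 0.0515). Cct6b, a testis form, stayed under 0.54 CPM, and Cct8l1 had 0 counts.

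Prefoldin, a complex that passes nascent actin and tubulin to the CCT ring, gave the same direction. Together with Tcp1, 7 of 7 genes in this list were higher in MON, against 20.8% of all genes tested, with a median of 0.82. Pfdn4 had the largest log2 fold change, at 8.57 and 15.9 CPM in MON and 4.23 and 4.75 CPM in NEU (1.44 ± 0.39, adjusted p = 0.0298), followed by Pfdn2 at 14.0 and 8.37 CPM in MON and 4.32 and 4.22 CPM in NEU (1.39 ± 0.36, adjusted p = 0.0273).

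Partners of HSP70 and HSP90 varied more. Beside the counts that follow, 20.8% of all genes tested were called higher in MON and 21.8% higher in NEU. Of 11 exchange factors and related HSP70 partners, 7 were higher in MON and 1 was higher in NEU, with a median of 1.02. Bag3, which links HSP70 to autophagy, had 20.995 and 18.8 CPM in MON, against 0.644 and 0.882 CPM in NEU. Its log2 fold change of 4.70 ± 0.32 (adjusted p = 0.000262) exceeded that of every member. The gene higher in NEU was Bag6, which guards newly made membrane proteins, at 52.3 and 51.6 CPM in MON and 74.8 and 85.9 CPM in NEU (-0.63 ± 0.12, adjusted p = 0.00898). Of 17 HSP90 cochaperones, 9 were higher in MON, none was higher in NEU and the median was 0.43. Nudc (1.08 ± 0.19, adjusted p = 0.00688) and Sugt1 (0.96 ± 0.19, adjusted p = 0.0105) differed most. The kinase adaptor Cdc37 (0.56 ± 0.12), the ATPase activator Ahsa1 (0.86 ± 0.11), the p23 gene Ptges3 (0.75 ± 0.10) and the HSP70 to HSP90 adaptor Stip1 (0.47 ± 0.12) were all higher in MON.

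The small heat shock protein genes with an Hspb symbol were nearly silent in these libraries. The 8 Hspb genes summed to 0.994 and 7.35 CPM in MON, against 3.91 and 3.63 CPM in NEU. Hspb2, Hspb3, Hspb8 and Hspb9 had 0 counts in all 4 libraries. Hspb11, which despite its symbol is a part of the transport machinery of cilia, had 0.803 and 5.30 CPM in MON, against 2.12 and 0.980 CPM in NEU. Hspb6 had 0.115 and 1.34 CPM in MON, against 1.79 and 2.65 CPM in NEU, and was not called (-1.61 ± 1.19, adjusted p = 0.330). Of the 18 members that were not tested, 9 had 0 counts in every library: these 4, Cct8l1, Dnajb3, Dnajc22, Dnajc5b and Dnajc5g. A count of 0 allows up to 3 counts in a library of the depths above, by counting error alone. Hspg2 had 0 counts in MON and 0.322 and 0.882 CPM in NEU, and Hspbp1, an exchange factor, was not called (0.49 ± 0.53, adjusted p = 0.499).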

How the data were processed

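Total RNA was depleted of ribosomal RNA and made into stranded, randomly primed libraries by PCR without molecular identifiers, so counting limits cover counting error only. The authors aligned reads with STAR (mm10) and deposited RSEM expected counts per gene, in which reads matching several genes are shared out. The deposited TPM, computed by the authors' RSEM run, sums to the same total in each library over all entries, and protein-coding genes held 8.04% to 10.3% of it, so it was rescaled to the same total over protein-coding genes (coding TPM). The posterior standard deviation and effective length deposited with them, in expected count and base units, served as checks of read assignment and length. The sources used here do not say whether the counting used strand.

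Symbols and gene types came from GENCODE M21 on mm10, matched by identifier for 42462 of 43346 genes (98.0%). Expected counts were rounded, filtered with filterByExpr and scaled by TMM (factors 0.994 to 1.01), and CPM are on this scale. Monocytes were compared with neutrophils by the quasi-likelihood F test of edgeR (4.0.16) over 14309 genes, with Benjamini-Hochberg adjustment, and was tested on simulated data. Each standard error is the fold change over the square root of its F. Replicates of both groups differed beyond sampling noise (chi-square over degrees of freedom 42.2 in monocytes and 24.6 in neutrophils). Replicate numbers follow accession order and pair no samples. Alternatives used DESeq2 (1.42.0), limma (3.58.1), other scalings and filters, omission of each library in turn, an effective length offset and a test for changes beyond 2-fold.

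Members and lists were chosen with earlier results of these data known. Named genes were, per family, the 4 highest in mean coding TPM, the 4 called that differed most (with at least 1 CPM in both libraries of the higher group), all members of the role lists, and, in each partner list, the 2 called that differed most. Other genes named complete a family, a complex or a count, a choice made with their values in view. Promoter windows came from RefSeq (GRCm38.p6).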

Additional observations from a re-analysis of the deposited data

How the results depend on the processing

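The counts of 31 members higher in monocytes and 6 in neutrophils were unchanged with the DESeq2 test, with protein-coding genes only, and with the size factors of DESeq2, upper-quartile scaling or plain library size. With limma, 17 were higher in monocytes on log2(coding TPM + 1) and 14 on log2(coding TPM + 0.1), scales on which the median over all genes was -0.26 and -0.30, against -0.06 in the main test. All 17 and 14 were among the 31. On both scales 6 were higher in neutrophils, 5 of them among the main 6, as Dnajc11 was gained and Dnajb2 lost. With an effective length offset 27 and 6 were called, all 27 among the 31 and 5 of the 6 in common, with the same exchange. With the pseudocount of 0.1, 70.0% of the members called were higher in monocytes, against 83.8%. Without a filter the median over all genes was -0.32. Tested against a 2-fold change, 7 and 1 were called. Leaving out 1 library gave 23 to 37 higher in monocytes and 3 to 10 in neutrophils, and a group left with 1 library was assumed to vary like the other. The log2 fold change of Hsph1 lay between -0.43 and 0.42 over these. With TPM as deposited, the log2 ratio of the summed level was 0.90 for all members, 1.38 for Hsp90, 1.11 for Hspa, 0.77 for Hspd and Hspe, 0.32 for Dnaja, 0.73 for Dnajb, 0.41 for Dnajc and 0.80 for Cct, against 0.65, 1.12, 0.86, 0.52, 0.07, 0.48, 0.15 and 0.55 on coding TPM. Without the 2 most abundant members it was 0.56 for all members, 1.44 for Hsp90, 0.74 for Hspa and 0.42 for Cct. Leaving out 1 library gave 0.58 to 0.72 for all members, 0.97 to 1.26 for Hsp90 and -0.63 to 0.24 for Hsph. The log2 fold of the ratios then ran from -0.48 to -0.026 for the inducible HSP70 pair over Hspa8, from 0.53 to 0.80 for Hsp90aa1 over Hsp90ab1 and from -0.17 to 0.17 for Dnajb1 over Dnaja1. The shift from deposited to coding TPM is set by the rescaling and is the same for every family. Protein-coding genes held 10.3% and 9.33% of the deposited TPM in MON, against 8.47% and 8.04% in NEU. The cause of the other shifts was not tested. No paired analysis was possible because the labels number no replicates. Depth limits the low members, such as the Hspb genes.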
